A study of Homo sapiens with 6 samples.

Results

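Genes of the insulin and IGF axis were chosen by symbol, 10 in all, from the deposited expression values of Hep G2 cells, a cell line from a human liver tumor, and each of them was found among 21863 gene symbols. They are the ligand *IGF2*, the receptors *INSR*, *IGF1R* and *IGF2R*, the receptor adaptors *IRS1* and *IRS2*, the binding proteins *IGFBP1*, *IGFBP2* and *IGFBP4*, and *IGF2BP1*, which encodes an RNA-binding protein. The rule used symbols only, and no measured value enters it, but the genes were chosen with earlier results of these data known. The cells were transfected with dsRNA mimicking *miR-195* or with dsRNA mimicking *miR-497*, both at 5 nM and collected after 24 hours, or were not transfected (NT, labelled 0 hours). In each of these 3 conditions 1 total RNA library (mRNA-seq) and 1 Ago2-IP library (Ago2-IP-seq) were made, 6 libraries in all. Both mimics are compared with the same NT libraries. The NT cells are given as non-transfected and no library with a control dsRNA was analysed here, so the effect of a mimic and that of transfection or of time in culture cannot be told apart here.

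Insulin and the insulin-like growth factors bind receptor tyrosine kinases at the cell surface, which phosphorylate the IRS adaptors and thereby switch on the PI3K-AKT and MAPK pathways. The liver is a main target of insulin and a main source of circulating IGF-binding proteins, and *IGF2* is a growth factor gene of fetal liver that is often active in liver tumors. A miRNA is loaded into an Argonaute protein such as Ago2 and guides it to mRNAs whose 3′UTR pairs with the miRNA's seed, after which the mRNA is degraded or translated less.

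The sequences below show what both mimics share and where the axis genes carry a match to it. The labels name no arm of either miRNA, and the 5p arms are shown, as listed by RefSeq, with the seed (positions 2 to 8) in capitals. The seeds are the same in both.

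miR-195-5p: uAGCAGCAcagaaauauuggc

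miR-497-5p: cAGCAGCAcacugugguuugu

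The match to this seed is TGCTGCT, searched on the transcript strand of the 3′UTRs of protein-coding transcripts in GENCODE release 44 on GRCh37 (hg19). It was found in 5 of the 10 genes, at 12 positions. *INSR* and *IGF1R* held 4 positions each, *IRS1* 2, and *IGF2R* and *IRS2* 1 each. In *IGF1R*, 2 of the 4 positions overlap each other. None was found in *IGF2*, *IGFBP1*, *IGFBP2*, *IGFBP4* or *IGF2BP1*. Windows of the expressed receptors and of *IRS1* are given below, each with 15 bases before the match and 1 base after it, and the match in capitals. All lie in 3′UTR exon sequence.

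INSR, chr19:7116833-7116839, minus strand, 228 bases after the stop codon: aggggtttccacagtTGCTGCTc

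INSR, chr19:7116484-7116490, minus strand, 577 bases after the stop codon: aaattgaccaatagcTGCTGCTt

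INSR, chr19:7113932-7113938, minus strand, 3129 bases after the stop codon: gtggggcccaaatctTGCTGCTc

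INSR, chr19:7113408-7113414, minus strand, 3653 bases after the stop codon: gagaaagagaagcacTGCTGCTt

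IGF1R, chr15:99501397-99501403, plus strand, 726 bases after the stop codon: cgactgcccctgctgTGCTGCTc

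IGF2R, chr6:160526434-160526440, plus strand, 318 bases after the stop codon: attcgaagaaaccctTGCTGCTt

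IRS1, chr2:227600607-227600613, minus strand, 375 bases after the stop codon: aagatacatttcatcTGCTGCTg

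IRS1, chr2:227597674-227597680, minus strand, 3308 bases after the stop codon: ccatatttggtctcaTGCTGCTt

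None of the 12 matches is followed by an A, so the longer form TGCTGCTA was found in 0 of the 10 genes. The A and U share of the 30 bases on either side of a match ran from 31.7% to 38.3% in *IGF1R*, from 43.3% to 60% in *INSR* and from 53.3% to 66.7% in *IRS1*. Matches are common in long 3′UTRs. Of 18216 symbols with an annotated 3′UTR, 25.3% held 1 or more, against 55.2% of the 2985 symbols whose longest 3′UTR had at least 3500 bases. Of the axis genes, 7 have such a long 3′UTR and 5 of these 7 held a match. The exceptions were *IGF2*, with 3870 bases in its canonical transcript, and *IGF2BP1*, with 6701 bases. Upstream of the 3′UTR, in the rest of the canonical transcript, TGCTGCT occurred in 8 of the 10 genes, all but *IRS1* and *IGF2BP1*.

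**Figure D1:**
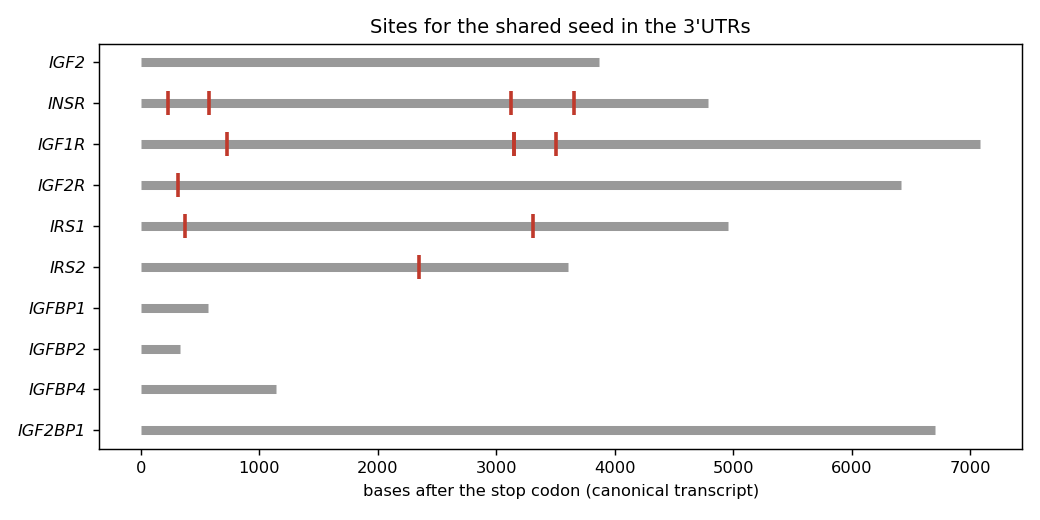
Positions of TGCTGCT in the 3′UTR of each axis gene, in bases after the stop codon of the canonical transcript (gray bar, drawn to its annotated length; red mark, match). *INSR* and *IGF1R* carry 4 matches each, of which some in *IGF1R* overlap, and close marks merge at this scale. The 3′UTRs of *IGFBP1*, *IGFBP2* and *IGFBP4* are short, with 569, 332 and 1142 bases.

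Abundance was deposited as RPKM, which divides reads by gene length and by library depth, so levels of different genes can be compared. The libraries differed in depth, with an estimated 24800000 to 31100000 mapped reads for total RNA and 10700000 to 16900000 for Ago2-IP. The summed RPKM over all genes was 311114 to 333420 in total RNA and 67345 to 116069 in Ago2-IP RNA. Of 8 hepatocyte markers, 7 had an RPKM of 1 or more in every library, and *AFP*, which encodes alpha-fetoprotein, ran from 4295 to 4884 in total RNA. The exception was *TTR*, at 1.52 to 4.81 in total RNA and 0.237 or less in Ago2-IP RNA. Of 10 markers of other cell types, 4 were listed at 0 in all 6 libraries (*PTPRC*, *CD3E*, *INS* and *GCG*), while the macrophage-associated gene *LYZ* was at 749 to 973 in total RNA. The summed RPKM of those 10 markers was 782 in NT, 1019 after *miR-195* and 817 after *miR-497* in total RNA, and 33.8, 71.1 and 41.9 in the same order in Ago2-IP RNA. It was highest after *miR-195* in both fractions, and most of it was *LYZ*, at 749, 973 and 766 in total RNA. Other markers were highest after *miR-497* there. *ACTA2*, a smooth muscle actin gene, was at 22.1, 31.9 and 36.2 in total RNA, and *CD68* at 10.5, 13.1 and 13.8. The part of these markers in the results was not tested. In RNA of whole cultures, fewer cells with a transcript and less of it per cell cannot be told apart. *EIF2C2*, which encodes Ago2, was at 8.89 (NT), 7.11 (*miR-195*) and 7.42 (*miR-497*) in total RNA and at 28.1, 34.2 and 10.2 in the same order in Ago2-IP RNA.

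In non-transfected total RNA the most abundant gene of the axis was *IGF2BP1* at 67.7 RPKM, followed by *IGF2R* at 65.0, *IGFBP4* at 60.8 and *IGFBP1* at 54.8. *IGF1R* followed at 18.9, *INSR* at 10.9, *IGF2* at 3.88 and *IRS1* at 3.63. From *IGF2BP1* down to *INSR*, the 95% counting intervals of neighbors in this order did not overlap. *IGF2* has no such interval, so its order relative to *INSR* and *IRS1* is given without one. With *miR-195* *IGFBP4* was the highest, at 68.5, with an interval that overlapped that of *IGF2BP1* at 65.6, and with *miR-497* *IGFBP4* was again the highest, at 77.7. In Ago2-IP RNA *IGF2R* was the highest in NT and with *miR-497*, and *IGF2* the highest with *miR-195*. *IRS2* and *IGFBP2* were listed at 0 in all 3 total RNA libraries. In Ago2-IP RNA *IRS2* was at 0.0170 in NT, 0.0420 with *miR-195* and listed at 0 with *miR-497*, and *IGFBP2* was at 0.103 with *miR-195* and listed at 0 in the other libraries. No ratio is given for these 2 genes. The insulin gene *INS* was listed at 0 in all 6 libraries.

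**Figure D2:**
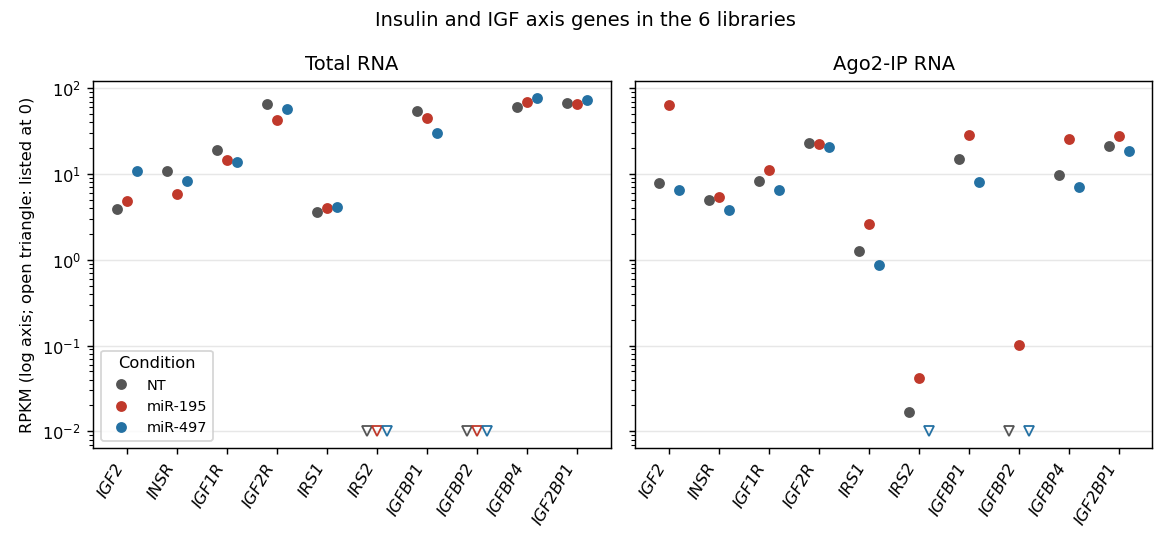
RPKM of the 10 axis genes in each of the 6 libraries, total RNA on the left and Ago2-IP RNA on the right, on a log axis (gray, NT; red, *miR-195*; blue, *miR-497*; open triangle, listed at 0). *IGF2* in the *miR-195* Ago2-IP library stands at 64.7, against 7.78 in NT and 6.59 with *miR-497*, while the 3 receptors lie between 3.77 and 22.9 in Ago2-IP RNA.

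The question of the total RNA comparison is which transcripts are less abundant after each mimic. Each gene's ratio to NT was divided by the median ratio of all genes listed above 0 in the 4 libraries of that mimic and NT, and a gene is called lower or higher where this centred ratio is past 1.5-fold. With 1 library per group no test between conditions was possible. The 95% intervals below come from read numbers inferred from the RPKM, cover counting error only and hold no variation between cultures. With *miR-195*, 2 of the 8 axis genes tested were lower and 0 were higher, against 8.09% and 11.2% of 13749 genes. With *miR-497*, 1 of 8 was lower and 1 was higher, against 6.25% and 13.3% of 13430 genes. The 8 genes had a median centred log2 change of −0.18 in the *miR-195* comparison and −0.13 in that of *miR-497*, where the median of all genes is 0 by construction.

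Of the receptors, *INSR* (chr19:7112266-7294425, minus strand) was at 10.9 RPKM in NT total RNA, 5.89 with *miR-195* and 8.38 with *miR-497*. It encodes the insulin receptor, and it was lowest with *miR-195*. Its centred ratio was 0.535 (0.502 to 0.570) with *miR-195*, at percentile 3.23 of all genes tested and wholly past 1.5-fold. With *miR-497* the centred ratio was 0.725 (0.685 to 0.767), at percentile 10.1. Set directly against each other, the centred ratio of *miR-195* over *miR-497* was 0.739 (0.694 to 0.788). The mimics thus differed for *INSR* by more than counting error, and whether they differed by more than culture-to-culture variation cannot be said with 1 library each.

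*IGF1R* (chr15:99191768-99507759, plus strand), the receptor for IGF1 and IGF2, was at 18.9 RPKM in NT total RNA, 14.7 with *miR-195* and 14.0 with *miR-497*. Both mimic libraries lay under NT and close to each other. The centred ratio was 0.767 (0.738 to 0.798) with *miR-195*, at percentile 14.8, and 0.696 (0.669 to 0.724) with *miR-497*, at percentile 7.83, within 1.5-fold in both. The centred ratio of *miR-195* over *miR-497* was 1.10 (1.06 to 1.15).

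*IGF2R* (chr6:160390114-160534539, plus strand), which binds IGF2 and mannose-6-phosphate and takes IGF2 to lysosomes for degradation, was at 65.0 RPKM in NT total RNA, 43.0 with *miR-195* and 56.6 with *miR-497*. The NT library was the highest of the 3. The centred ratio was 0.654 (0.638 to 0.670) with *miR-195*, just past 1.5-fold, with an interval that reaches across this limit. With *miR-497* it was 0.819 (0.801 to 0.838), and that of *miR-195* over *miR-497* was 0.799 (0.780 to 0.819). Centring on genes whose RPKM was 1 or more left *IGF2R* within 1.5-fold with *miR-195*, at a log2 change of −0.57.

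*IRS1* (chr2:227596028-227664536, minus strand), an adaptor that links the products of *INSR* and *IGF1R* to PI3K, was at 3.63 RPKM in NT total RNA, 4.01 with *miR-195* and 4.14 with *miR-497*. Its 3′UTR holds 2 matches to the seed. Its interval included the median gene with both mimics, with a centred ratio of 1.09 (0.996 to 1.20) for *miR-195* and 1.07 (0.979 to 1.18) for *miR-497*. The centred ratio of *miR-195* over *miR-497* was 1.02 (0.938 to 1.11).

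*IGF2* (chr11:2150342-2179621, minus strand) was at 3.88 RPKM in NT total RNA, 4.82 with *miR-195* and 10.9 with *miR-497*. It was the gene called higher with *miR-497*, with a centred ratio of 2.63 at percentile 98.4, while with *miR-195* the centred ratio was 1.23. Its RPKM values do not stand in the ratio of whole numbers, so no counting interval is given. *IGF2* overlaps the read-through gene *INS-IGF2* and an antisense gene, and the use of strand in counting is not given in the sources used here. *INS-IGF2* was listed at 0 in all 6 libraries and the antisense gene *IGF2AS* was at 0.0947 or less.

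The binding proteins carry IGFs in blood and tissue fluid and limit or prolong their action. *IGFBP1* (chr7:45927959-45933259, plus strand), whose secreted product comes mainly from liver and whose transcription insulin represses, was at 54.8 RPKM in NT total RNA, 44.9 with *miR-195* and 30.4 with *miR-497*. The *miR-497* library was the lowest, with a centred ratio of 0.522 (0.489 to 0.557) at percentile 1.66, wholly past 1.5-fold, and its 3′UTR held no match to the seed. With *miR-195* the centred ratio was 0.810 (0.763 to 0.859), and that of *miR-195* over *miR-497* was 1.55 (1.46 to 1.66).

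*IGFBP4* was at 60.8 RPKM in NT total RNA, 68.5 with *miR-195* and 77.7 with *miR-497*. Both mimic libraries lay above NT, with centred ratios of 1.11 (1.06 to 1.16) and 1.20 (1.15 to 1.26), within 1.5-fold. *IGF2BP1*, whose protein binds *IGF2* and other mRNAs and is typical of fetal tissue and tumors, was at 67.7 RPKM in NT total RNA, 65.6 with *miR-195* and 73.5 with *miR-497*. It was the gene of the axis nearest to the median gene, with centred ratios of 0.958 (0.937 to 0.980) and 1.02 (1.0002 to 1.04).

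**Figure D3:**
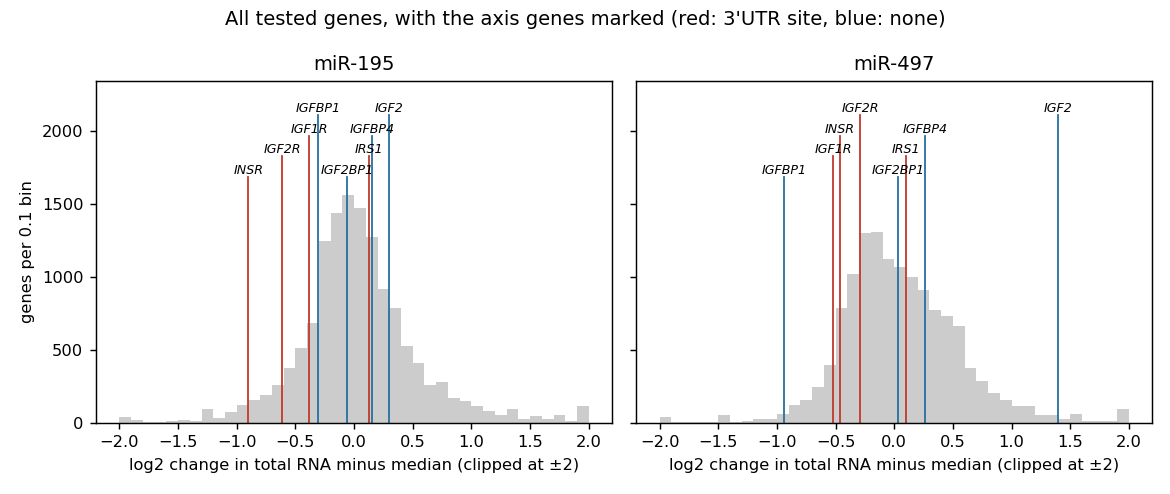
Histogram of the log2 change in total RNA from NT, minus the median of all genes, for *miR-195* (13749 genes) and *miR-497* (13430 genes), in bins of 0.1, with values beyond ±2 placed in the end bins. Vertical lines mark the 8 axis genes tested (red, 1 or more matches in a 3′UTR; blue, none). *INSR* lies lowest of them with *miR-195* at −0.90 and *IGFBP1* lowest with *miR-497* at −0.94, and *IGF2* stands at 1.40 with *miR-497*.

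Grouped by the presence of a match, the 4 genes with one that were tested (*INSR*, *IGF1R*, *IGF2R* and *IRS1*) had a median centred log2 total RNA change of −0.50 after *miR-195*, ranging from −0.90 to 0.13. With *miR-497* their median was −0.38, ranging from −0.52 to 0.10. The 4 genes without one had a median of 0.05 after *miR-195* (−0.30 to 0.29) and of 0.15 after *miR-497* (−0.94 to 1.40). The 2 groups overlapped with both mimics, because *IRS1* lay above the median gene and *IGFBP1* below it. Over all genes with a match, the median was −0.08 for both, on 3545 genes for *miR-195* and 3474 for *miR-497*. With 4 genes a group, the data allow no more than this description.

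The Ago2-IP comparison asks which transcripts were relatively more abundant in Ago2-IP RNA after a mimic. The median gene itself moved, its ratio to NT being 1.40 after *miR-195* and 0.852 after *miR-497*, and changes are given relative to it. With *miR-195*, 0 of the 8 axis genes were lower and 2 were higher, against 17.3% and 21% of all genes tested. With *miR-497*, 1 of 8 was lower and 0 were higher, against 9.92% and 11.2%. These shares of all genes are larger than in total RNA, except that of higher genes with *miR-497*.

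*IGF2* was at 7.78 RPKM in NT Ago2-IP RNA, 64.7 with *miR-195* and 6.59 with *miR-497*. The *miR-195* library stood apart from the other 2. The deposited ratio to NT was 8.31 with *miR-195*, a centred ratio of 5.93 at percentile 99.2, and the centred ratio with *miR-497* was 0.995. Between the mimics, the centred ratio of *miR-195* over *miR-497* was 6.15, at percentile 99.4. If the canonical transcript length of 5580 bases holds, the values correspond to about 733, 4930 and 393 reads in the order above. *IGF2* held no match to the seed in its 3′UTR, and 1 TGCTGCT upstream of it in the canonical transcript.

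The receptors were all within 1.5-fold in this fraction, with either mimic. *INSR* was at 5.02 RPKM in NT Ago2-IP RNA, 5.46 with *miR-195* and 3.77 with *miR-497*, centred ratios of 0.776 (0.700 to 0.861) and 0.882 (0.779 to 0.9997). *IGF1R* was at 8.38, 11.1 and 6.50 in the same order, centred ratios of 0.941 (0.879 to 1.01) and 0.911 (0.836 to 0.992). *IGF2R* was at 22.9, 22.6 and 20.6, centred ratios of 0.704 (0.670 to 0.740) and 1.05 (0.998 to 1.11).

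Beside *IGF2*, only *IGFBP4* among the axis genes tested was past 1.5-fold with *miR-195*. *IGFBP4* was at 9.67 RPKM in NT Ago2-IP RNA, 25.4 with *miR-195* and 7.14 with *miR-497*. It was called higher with *miR-195* at a centred ratio of 1.87 (1.65 to 2.12). *IGFBP1* was at 15.2, 28.3 and 8.13 in the same order, with a centred ratio of 1.33 (1.18 to 1.51) for *miR-195*, within 1.5-fold. With *miR-497* *IGFBP1* was the gene called lower, at 0.630 (0.521 to 0.761), an interval that reaches across the limit. *IRS1* was at 1.27, 2.61 and 0.870, with centred ratios of 1.47 (1.22 to 1.76) and 0.803 (0.619 to 1.04), on 187, 311 and 81 inferred reads. *IGF2BP1* was at 21.2, 27.7 and 18.5, and its centred ratios were 0.932 (0.888 to 0.979) and 1.03 (0.967 to 1.09).

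**Figure D4:**
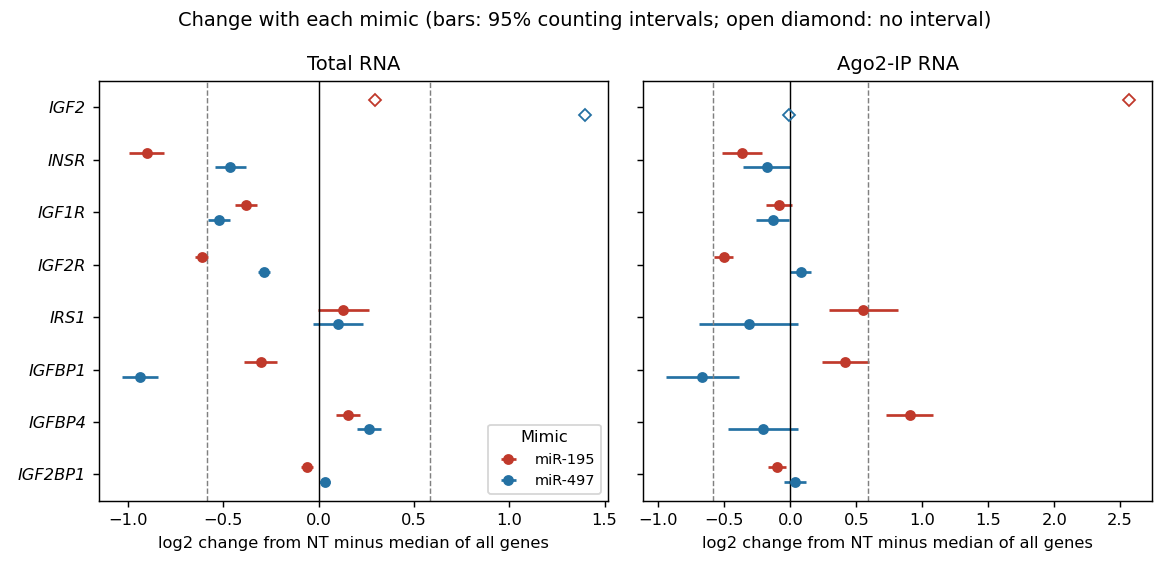
Log2 change from NT minus the median of all genes, for the 8 axis genes tested, in total RNA (left) and Ago2-IP RNA (right; its axis is wider). Points are single libraries against NT (red, *miR-195*; blue, *miR-497*), bars are 95% counting intervals, open diamonds have none, and dashed lines mark 1.5-fold. The 3 receptors and *IGFBP1* lie left of the median gene in total RNA with both mimics, and *IGF2* stands at 2.57 with *miR-195* in Ago2-IP RNA.

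The ratio of Ago2-IP to total RNA within a condition compares a gene's relative abundance in both fractions. Each RPKM is scaled to its own library, so the ratio is not the share of a transcript bound by Ago2. The median gene was at 0.326 in NT, 0.469 with *miR-195* and 0.260 with *miR-497*. *IGF2* was at 2.00 in NT, 13.4 with *miR-195* and 0.607 with *miR-497*, the only axis gene tested with a ratio above 1 in any condition. *INSR* was at 0.461 (0.425 to 0.500) in NT, 0.926 (0.846 to 1.01) after *miR-195* and 0.450 (0.403 to 0.503) after *miR-497*. *IGF1R* was at 0.443 (0.419 to 0.469), 0.752 (0.712 to 0.795) and 0.465 (0.431 to 0.501) in the same order. *IGF2R* was at 0.352 (0.340 to 0.366), 0.525 (0.504 to 0.548) and 0.364 (0.347 to 0.381). All 3 receptors thus lay above the median gene in all 3 conditions, as did *IGF2*. In the same order, *INSR* was at percentiles 65.6, 79.9 and 69.7 of all genes, and *IGF1R* at 63.9, 73.5 and 70.6. *IGF2R*, at 53.4, 56.3 and 62.7, was nearer to the median gene. *IRS1* was at percentiles 53.2, 67.2 and 41.8, and *IGFBP1* at 42.1, 65.7 and 51.2. *IGFBP4* lay under the median gene in all 3 conditions, at ratios of 0.159 (0.143 to 0.177), 0.370 (0.343 to 0.400) and 0.0919 (0.0789 to 0.107).

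**Figure D5:**
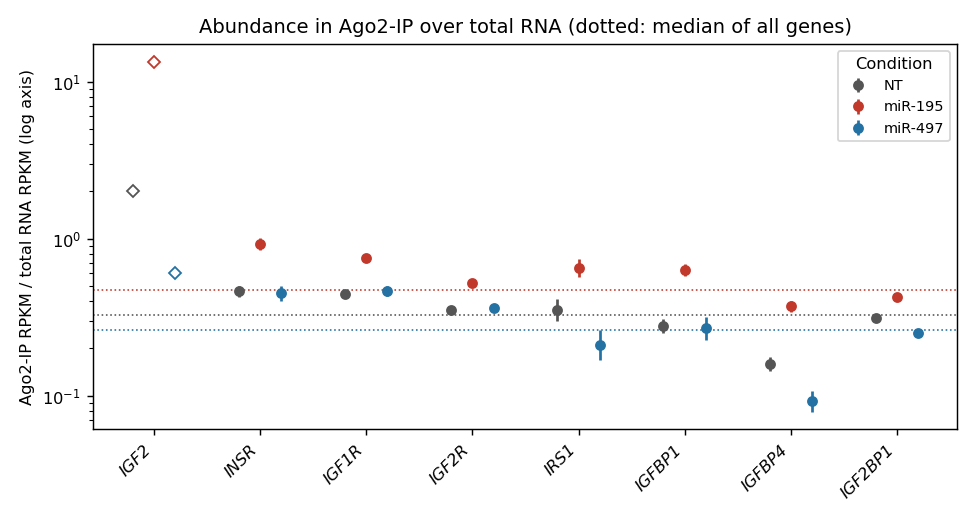
Ago2-IP RPKM over total RNA RPKM of the 8 axis genes tested in each condition, on a log axis (gray, NT; red, *miR-195*; blue, *miR-497*). Bars are 95% counting intervals, open diamonds have none, and dotted lines mark the median of all genes in each condition. *IGF2* stands at 13.4 with *miR-195* and *IGFBP4* lies under the median gene in all 3 conditions.

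The fold enrichment score is the Ago2-IP to total RNA ratio with a mimic divided by that in NT. The median gene scored 1.38 for *miR-195* and 0.824 for *miR-497*. With *miR-195*, 0 of 8 axis genes were lower and 3 were higher than the median gene by at least 1.5-fold, against 16.9% and 18.6% of all genes. The 3 were *IGF2*, *IGFBP4* and *IGFBP1*, with scores of 6.70, 2.33 (2.04 to 2.66) and 2.28 (1.99 to 2.61). None of them held a match to the seed in its 3′UTR. After centring, the intervals of *IGFBP4* and *IGFBP1* reached across 1.5-fold, and *IGF2* has no interval. *INSR* followed at 2.01 (1.78 to 2.27), *IRS1* at 1.86 (1.52 to 2.28), *IGF1R* at 1.698 (1.57 to 1.84), *IGF2R* at 1.49 (1.41 to 1.58) and *IGF2BP1* at 1.35 (1.28 to 1.42). *INSR*, which holds matches, lay just within 1.5-fold, at a centred log2 score of 0.54. With a pseudocount of 1 its centred log2 score was 0.63 and it was called higher. With a pseudocount of 0.1 the score was 0.58 and with a minimum RPKM of 1 it was 0.53, both within 1.5-fold. The centred log2 change of *INSR* with *miR-195* was −0.90 in total RNA and −0.37 in Ago2-IP RNA, so it lay under the median gene in both fractions.

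With *miR-497*, 1 of 8 was lower and 0 were higher, against 20.6% and 12.6% of all genes. *IGF2* was the one, with a score of 0.303, opposite to its place with *miR-195*. *IGFBP4* was at 0.578 (0.479 to 0.697), *IRS1* at 0.600 (0.455 to 0.791) and *IGF2BP1* at 0.804 (0.756 to 0.856). *IGF1R* at 1.05 (0.955 to 1.15), *IGF2R* at 1.03 (0.973 to 1.10), *INSR* at 0.976 (0.851 to 1.12) and *IGFBP1* at 0.968 (0.792 to 1.18) stood close together. These scores are not centred, and the median gene scored 0.824. The intervals of the receptors lay above that value, and the interval of *IGFBP1* included it.

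The other genes of the axis, a list of 30 that includes further binding proteins, adaptors such as *SHC1* and *GAB1* and the phosphatase gene *PTPN1*, were compared in the same way. With *miR-195*, 22 of the 30 could be tested, 0 were lower and 2 were higher in total RNA, against 8.09% and 11.2% of all genes, with a median centred log2 change of 0.03. With *miR-497*, 21 could be tested, 0 were lower and 2 were higher, against 6.25% and 13.3%, with a median of 0.00. The higher genes, named after their values were seen, were *IGFBP7* and *SH2B2* for *miR-195*, and *IGFBP6* and *SH2B2* for *miR-497*. The interval of *SH2B2* included the median gene both times, and *IGFBP7* has no interval in either fraction. In Ago2-IP RNA with *miR-195*, 3 of 22 were lower and 4 were higher, against 17.3% and 21% of all genes. The lower ones were *IGFBP3*, *GRB14* and *GAB1*, and the higher ones *IGFBP6*, *IGFBP7*, *PDPK1* and *DOK4*. The intervals of *IGFBP3* and *GRB14* included the median gene. With *miR-497* 0 of 21 were lower and 1, the protease gene *PAPPA*, was higher, against 9.92% and 11.2%. *IGFBP6* was at 0.308 RPKM in NT Ago2-IP RNA, 4.56 with *miR-195* and 0.389 with *miR-497*, with only the *miR-195* library high. These values rest on 5, 60 and 4 inferred reads, and the centred ratio with *miR-195* was 10.6 (4.25 to 26.4).

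Of 14 genes that insulin regulates in liver, 12 could be tested with *miR-195*, where 1 (*PDK4*) was lower and 3 (*PCK1*, *G6PC* and *CCNG2*) were higher in total RNA, against 8.09% and 11.2% of all genes. The intervals of *PDK4*, *PCK1* and *G6PC* included the median gene. With *miR-497* 10 could be tested, where 1 (*IGFBP1*, which is also of the 10 genes above) was lower and 3 (*G6PC*, *SREBF1* and *FASN*) were higher, against 6.25% and 13.3%. In Ago2-IP RNA 0 of 12 were lower and 1 (*FASN*) was higher after *miR-195*, against 17.3% and 21% of all genes. After *miR-497* 2 of 10 (*TRIB3* and *IGFBP1*) were lower and 1 (*G6PC*) was higher, against 9.92% and 11.2%. The interval of *G6PC* with *miR-497* included the median gene in both fractions. Among these, *FASN*, the fatty acid synthase gene, was at 55.9 RPKM in NT total RNA, 62.9 with *miR-195* and 105 with *miR-497*, a centred ratio of 1.77 for *miR-497*. No read numbers could be inferred for *FASN*, so it has no interval in either fraction. *SREBF1*, which encodes a transcription factor that activates *FASN*, was at 7.02, 8.99 and 12.0 in the same order, a centred ratio of 1.61 (1.48 to 1.74) for *miR-497*. These genes too were named after their values were seen.

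The genes whose pattern over the 6 libraries was most like that of *INSR*, by the root mean square distance of log2 RPKM after centring each gene, were *DCP1A*, *PPP2R2D* and *CDC14B*. Their distances were 0.08, 0.10 and 0.10, against a median of 0.65 over 8582 genes whose RPKM was 1 or more in every library. For *IGF1R* they were *AGPAT5*, *PPP2R1B* and *SGMS1*, at distances of 0.04, 0.05 and 0.07, against a median of 0.57. *IGF1R* and *INSR* lay 0.21 apart, which placed *IGF1R* at rank 89 for *INSR* and *INSR* at rank 404 for *IGF1R*.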

How the data were processed

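Total RNA and Ago2-IP RNA of Hep G2 cells were sequenced in 6 libraries, 1 per group. Single reads of 36 bases had been aligned to hg19 by ELANDv2, and the authors deposited RPKM values made with CASAVA 1.7, per the labels and the methods. The gene annotation and read filters are not given in the sources used here, and the methods do not say which libraries had poly-A selection. Library protocols started from different RNA inputs for the 2 fractions. The values were used as deposited, after averaging 28 symbols with 2 lines each, none of them among the 10 genes.

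Ratios were taken without a pseudocount over genes with an RPKM above 0 in the 4 libraries of a mimic and NT. Since the RPKM of a gene divided by the worth of 1 read in each library stand in whole-number ratio, reads were inferred as the smallest whole numbers within 0.02 reads, in at least 3 libraries. This gave numbers for 91.4% of 15487 genes and for 7 of the 10, not for *IGF2*, *IRS2* and *IGFBP2*. Implied lengths lay within 1.5-fold of the canonical transcript for 82.3% of 7797 genes, so some inferred numbers are wrong. For *IGF2R* the implied length was 9059 bases against 14061, and for *INSR* 9028 against 9463. Library depth was scaled to these lengths. Intervals of 95% were placed on the log scale and assume independent reads. No p-values were calculated.

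Symbols were matched to GENCODE release 44 directly (16385) or by a unique RefSeq synonym (1831). Mature miRNA sequences are those of RefSeq on GRCh38.p14. Some site windows are not reported here. The genes and lists were chosen with earlier results of these data known. From the wider lists the rule named genes whose RPKM reached 1 in all 6 libraries with an interval wholly past 1.5-fold in total RNA, which selected none. The nearest 3 patterns and *EIF2C2* were also named by rule. Procedures were tested on simulated data. Alternatives were pseudocounts of 0.1 and 1, a minimum RPKM of 1, no centring, a limit of 2-fold, intervals wholly past 1.5-fold, lines of one symbol kept apart, and sites of 6 and 8 bases. Calculations ran in Python 3.11.15, with scipy 1.17.1, numpy 2.4.6 and pandas 2.3.3, and plots in matplotlib 3.10.9.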

Additional observations from a re-analysis of the deposited data

Results flagged for a closer look

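*IGFBP1* moved in opposite directions in the 2 fractions with *miR-195*. Relative to the median of all genes, its log2 change from NT was −0.30 in total RNA and 0.41 in Ago2-IP RNA. Its deposited ratios to NT were 0.820 and 1.87, so the directions were the same without centring. On the deposited scale *INSR*, *IGF1R* and *IGF2BP1* too were below NT in total RNA and above it in Ago2-IP RNA with *miR-195*. The median gene itself had an Ago2-IP ratio of 1.40. Each value comes from 1 library against 1 and the difference between the fractions was not tested against culture variation.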

How the results depend on the processing

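With 1 library per group no library could be left out. Depth limits the calls of *PCK1*, *G6PC*, *PDK4*, *SH2B2*, *IGFBP3* and *GRB14*, whose intervals included the median gene. No paired analysis was possible because each group has only 1 library, so that a mimic and NT share 1 replicate number. The Ago2-IP and total RNA libraries of a condition were set against each other only as ratios. No gene of the axis changed direction where it was called. Pseudocounts of 0.1 and 1 and keeping lines of one symbol apart left every count of called genes within 1.5 times. With *miR-195*, a pseudocount of 1 gave 3 in place of 2 genes in Ago2-IP RNA and 4 in place of 3 for the score. A minimum RPKM of 1 gave 1 called gene in place of 2 for total RNA with *miR-195*, because the median moved and *IGF2R* lost its call. Without centring, 4 in place of 2 genes were called in Ago2-IP RNA with *miR-195*, 6 in place of 3 for the score with *miR-195* and 3 in place of 1 for the score with *miR-497*, as the library medians differ. For *miR-195* and *miR-497* in turn, a limit of 2-fold gave 0 and 1 genes in total RNA, then 1 and 0 in the Ago2-IP fraction, and 1 for the score with *miR-195*. With an interval wholly past 1.5-fold, which *IGF2* cannot meet as it has none, 1 gene was called in total RNA with each mimic, 1 and 0 in Ago2-IP RNA and 0 for both scores. The 6-base site was found in 7 of the 10 genes and the 8-base site in 0, against 5 for the 7-base site.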
